A study of Homo sapiens with 32 samples.

Results

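The genes described here are transcriptional outputs of ERK signalling: the phosphatases DUSP4, DUSP5 and DUSP6, the pathway inhibitors SPRY2, SPRY4 and SPRED1, and the transcription factors ETV5, EGR1, FOS and JUN. They were listed by name, with no cut on a measured value, but earlier results of these data were already known. Array features carrying these symbols were found for 9 of the 10 genes, out of 14884 genes measured, and no feature named SPRED1 was found. DUSP5, EGR1 and FOS had 2 features each, which gave 12 features in all; the brighter feature stands for the gene unless the second is named.

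The 32 GeneChip arrays hold RNA of K-562, a suspension line from human chronic myeloid leukemia that carries the BCR fusion kinase. Treatment-naive cells were compared with cells resistant to 0.5 µM imatinib (low imatinib), 2 µM imatinib (high imatinib) or 0.1 µM nilotinib, all reached by stepwise dose increases; both drugs inhibit the fusion kinase. Each resistance had 2 biological replicates, called lines 1 and 2, with 4 technical arrays each, and the naive arrays fell into 4 titled S and 4 titled K, letters that the labels do not explain. One growth text, of medium free of both drugs, is given for every sample, so the labels leave unclear whether cells were harvested under drug. Total RNA was extracted with a miRVana kit and 100 ng per array was labelled with the WT PLUS kit.

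In these cells the fusion kinase signals through adaptor proteins to RAS, RAF, MEK and ERK. Active ERK phosphorylates transcription factors in the nucleus, and these switch on several kinds of gene in quick succession: immediate early genes such as EGR1, FOS and JUN, which themselves encode transcription factors, and feedback genes whose products switch the pathway off again. The dual-specificity phosphatases remove the activating phosphates from ERK, while Sprouty and Spred proteins act upstream, between the receptor or adaptor and RAF. Transcript levels of these genes are widely used as a reading of ERK pathway output, and inhibition of the fusion kinase is known to lower several of them.

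All values below are log2 intensities per feature, so a difference of 1 is a 2-fold difference; levels of different features are not comparable. Array medians lay between 5.85 and 6.11, and within a set the arrays had pairwise correlations of 0.952 to 0.991 over genes. The erythroid markers of K-562 that were measured (5 of 12) included GATA1 at a mean of 9.42 and KLF1 at 8.53, and all 5 lay above the median of all genes. Of markers of other cell types, 1 of 6 for T and B cells, 2 of 3 for monocytes, 3 of 4 for epithelial cells and 2 of 4 for fibroblasts were measured. The fibroblast genes DCN and LUM lay at 4.26 and 4.57, the lymphocyte gene CD2 at 6.40, the monocyte gene CD14 at 5.62 and the epithelial gene KRT5 at 5.65, below the median of all genes, while the monocyte gene LYZ (7.04) and the epithelial genes EPCAM (7.84, from 5.86 to 9.26 over the sets) and KRT19 (7.53) lay above it. The part of these genes in the results was not tested. The technical axis, which is the main direction of variation among arrays of one RNA source and held 16.8% of that variation, scored -20.8 and -25.1 in naive S and K against -2.13 to 21.2 in the 6 resistant lines.

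The members varied to different degrees over the sets, as the plot of their values on each array shows. Levels of EGR1, SPRY4 and JUN spread over 7.91-fold, 5.80-fold and 3.80-fold between the lowest and the highest set. DUSP5 and SPRY2 spread over 2.64-fold and 2.60-fold, and most of that spread lay in high-imatinib line 1. The remaining genes, DUSP4, ETV5, DUSP6 and FOS, kept within 1.91-fold, 1.68-fold, 1.43-fold and 1.36-fold. Of the 28 pairs of sets, 25 differed beyond technical spread for EGR1, 25 for SPRY4, 22 for JUN, 18 for SPRY2, 13 for ETV5, 12 for DUSP5, 10 for DUSP4, 2 for DUSP6 and 2 for FOS (limma on the 32 arrays). Over all genes and pairs, 35.2% of such tests passed.

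**Figure D1:**
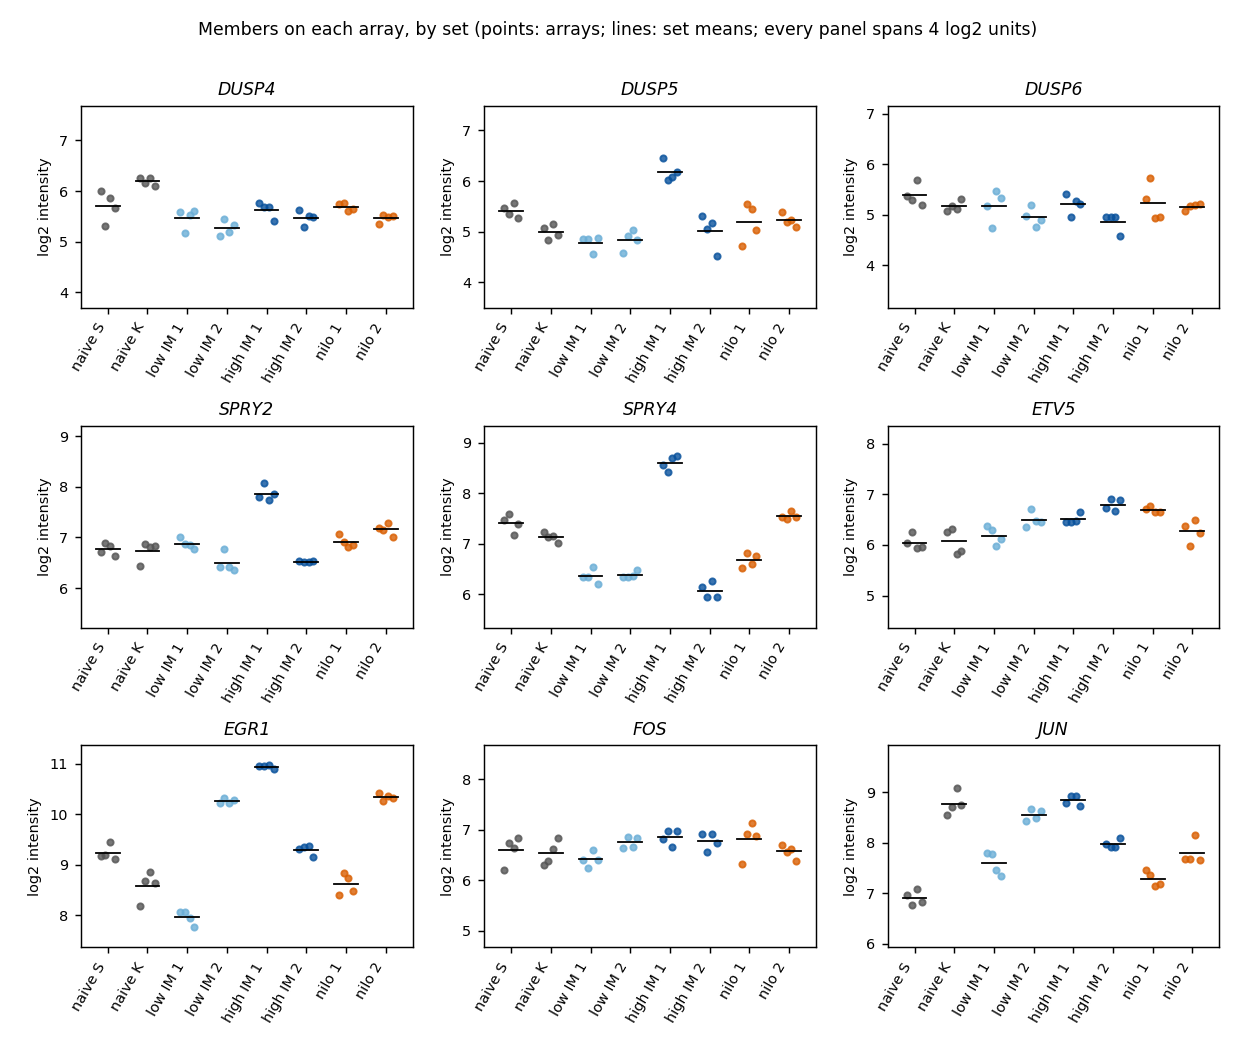
Log2 intensity (vertical axis) of the 9 members in each of the 8 sets (horizontal axis), with 1 point per technical array and a line at the mean of the 4 arrays; every panel spans the same 4 log2 units, centred on its own gene. SPRY4, SPRY2, DUSP5 and EGR1 were highest in high-imatinib line 1 (means 8.60, 7.87, 6.18 and 10.95), whereas DUSP6 and FOS stayed nearly level across the sets.

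The first comparison asks whether resistant cells as a whole differ from naive cells in these outputs. No member passed the test in any of the 7 comparisons between groups (limma on the 8 set means, Benjamini-Hochberg over all genes, threshold 0.05). Over all 6 resistant lines against the 2 naive sets, 3.72% of all genes passed, as did 0.443% for nilotinib against naive and 0% in the other 5 comparisons. At an unadjusted p under 0.05 there were 2 of the 9 members over all lines, against 29.8% of all genes, 1 for low imatinib (21.6%), 1 for high imatinib (15.2%) and 0 for nilotinib (31.9%). Between resistances 0 members had such a p, against 4.85% of genes for high against low imatinib, 6.91% for nilotinib against low and 6.34% for nilotinib against high imatinib. The median difference of the members was 0.13, against -0.03 for all genes, and the range was from -0.45 for DUSP4 to 0.66 for EGR1.

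DUSP4 encodes a nuclear phosphatase of ERK and related kinases. Its 4 arrays read 5.99, 5.31, 5.86 and 5.67 in naive S and 6.26, 6.17, 6.27 and 6.09 in naive K. The resistant lines had means of 5.47 ± 0.20 and 5.27 ± 0.15 (SD, n = 4 arrays) in low imatinib, 5.63 ± 0.15 and 5.47 ± 0.14 in high imatinib, and 5.69 ± 0.07 and 5.47 ± 0.08 in nilotinib. All 6 lines thus lay below both naive sets by their means, while arrays of each line overlapped those of naive S and none reached those of naive K. The difference was -0.45 ± 0.16 (SE, n = 6 lines against 2 sets, limma adjusted p = 0.123, 95% interval -0.83 to -0.08). Means of this kind, with every line below both naive sets, were found for 15.9% of all genes. The size rested on naive K: without that set the difference was -0.21 (limma adjusted p = 0.542), and without naive S it was -0.70 (adjusted p = 0.189). DUSP4 was the only member whose highest set was naive K, and naive K exceeded naive S by 0.49 (limma on arrays, adjusted p = 0.00659).

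DUSP5 encodes a nuclear phosphatase specific to ERK, and DUSP6 its cytoplasmic counterpart. The DUSP5 arrays of high-imatinib line 1 read 6.46, 6.01, 6.07 and 6.17. No array of another set exceeded 5.56, and the low-imatinib lines lay lowest, at 4.78 ± 0.15 and 4.84 ± 0.19 (SD, n = 4 arrays). High-imatinib line 1 was therefore separate from every other set, whereas the remaining sets followed each other without a step that passed the test. Over all resistant lines, DUSP5 differed from naive by 0.00 ± 0.29 (SE, limma adjusted p = 0.999). The second DUSP5 feature did not follow the first: its set means ran from 4.87 to 5.36, it read 5.14 in high-imatinib line 1, and over the 8 sets the features correlated at r = -0.25. The higher DUSP5 level in that line therefore stands on 1 of the 2 features.

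DUSP6 set means ran from 4.87 in high-imatinib line 2 to 5.39 in naive S. Of the 28 pairs of sets only 2 differed beyond the technical spread, and no neighbours in the order did. DUSP4, DUSP5 and DUSP6 were all among the dimmest 40% of genes, and they were not tested when those genes were left out.

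**Figure D2:**
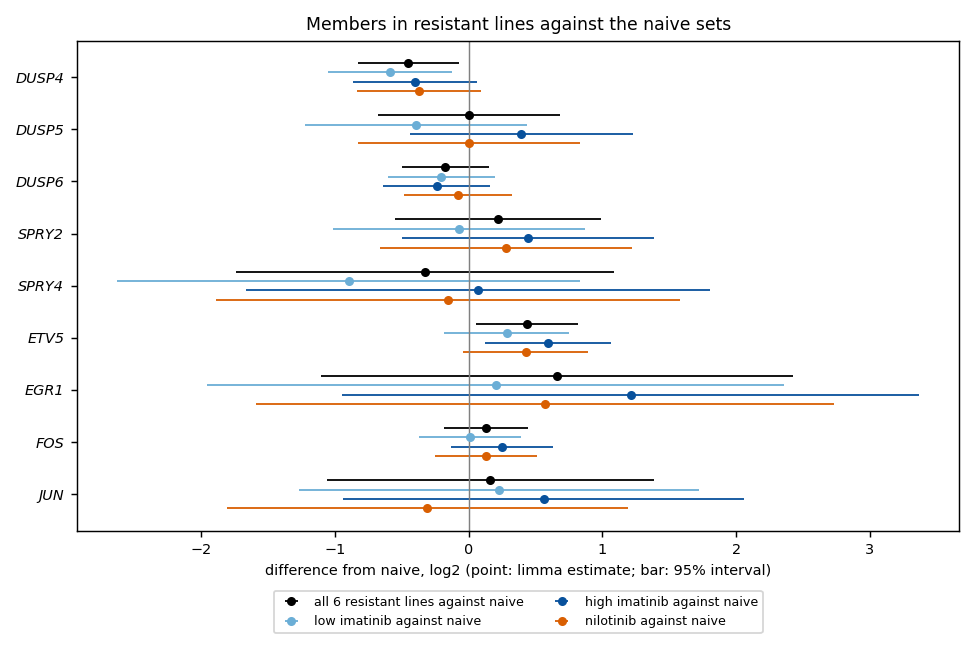
Difference from the naive sets in log2 units (horizontal axis) for each member (vertical axis), as the limma estimate with its 95% interval, for all 6 resistant lines and for each resistance. The intervals of EGR1, JUN and SPRY4 are the widest, and those of DUSP4 and ETV5 for all lines (-0.83 to -0.08 and 0.05 to 0.82) do not reach 0, though neither passed after adjustment.

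Each resistance was also set against the same 2 naive sets. For low imatinib, DUSP4, DUSP5 and SPRY4 lay below both naive sets in both lines, 3 of 9 where 31% of genes did, and ETV5 lay above, 1 of 9 where 31% did. For high imatinib, DUSP4 lay below (25.9% of genes) and ETV5, EGR1 and FOS above (24.3%). The EGR1 order rested on a gap of 0.066 between high-imatinib line 2 and naive S, not beyond technical spread. Second features overlapped the naive sets for EGR1 and FOS in high imatinib and for DUSP5 in low imatinib. For nilotinib, DUSP4 lay below (34.7%) and SPRY2 and ETV5 above (32.7%). DUSP4 and ETV5 were thus the members with one order of set means in all resistances, at -0.59, -0.40 and -0.37 (SE 0.20 each, n = 2 lines against 2 sets) for DUSP4 in low imatinib, high imatinib and nilotinib. In nilotinib the DUSP4 order rested on a gap of 0.019 between naive S and nilotinib line 1. In low imatinib the ETV5 order rested on a gap of 0.11 between low-imatinib line 1 and naive K. Neither gap was beyond technical spread.

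SPRY4 and SPRY2 encode Sprouty proteins, which are made in response to ERK activity and restrain RAS and RAF activation. SPRY4 read 7.46, 7.59, 7.18 and 7.39 in naive S and 7.23, 7.12, 7.15 and 7.0 in naive K. The arrays of high-imatinib line 1 read 8.56, 8.42, 8.69 and 8.74, and those of high-imatinib line 2 read 6.14, 5.94, 6.25 and 5.94. The 2 lines with the same resistance were thus the highest and the lowest of all 8 sets, on either side of the naive level. Low-imatinib lines 1 and 2 had means of 6.35 ± 0.15 and 6.38 ± 0.07, nilotinib line 1 of 6.67 ± 0.14 and nilotinib line 2 of 7.55 ± 0.07 (SD, n = 4 arrays). Both low-imatinib lines lay below both naive sets with no array overlapping, by 0.90 on average (SE 0.73, limma adjusted p = 0.489). When only the low-imatinib and naive sets entered the fit, the same difference passed (adjusted p = 0.011), as did 1990 of 14884 genes, against 0 in the fit to all groups.

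In descending order SPRY4 stood highest in high-imatinib line 1, then in nilotinib line 2, naive S, naive K, nilotinib line 1, low-imatinib line 2, low-imatinib line 1 and high-imatinib line 2. Neighbours that did not differ beyond technical spread were nilotinib line 2 and naive S (adjusted p = 0.23), naive S and naive K (0.0653), and both low-imatinib lines (0.891). The other 4 steps passed, the largest being the first, of 1.05 (limma on the 32 arrays, adjusted p = 4.58e-10).

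SPRY2 showed the same high set with a flatter remainder. Its arrays read 7.80, 8.07, 7.75 and 7.86 in high-imatinib line 1 and 6.54, 6.51, 6.51 and 6.54 in high-imatinib line 2. All other sets had means from 6.49 in low-imatinib line 2 to 7.16 in nilotinib line 2, and the naive sets stood at 6.77 and 6.74. Only the first step in the order passed the test (0.71, adjusted p = 2.19e-06). Against naive, SPRY2 differed by 0.22 ± 0.32 over all resistant lines (SE, limma adjusted p = 0.655), and without high-imatinib line 1 by -0.01 (adjusted p = 0.979).

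EGR1 encodes a zinc finger transcription factor that is among the first genes switched on by ERK. The 250 bases upstream of the annotated start are given here for the members that stood highest in high-imatinib line 1 and had a motif match, 5′ to 3′ on the gene's strand. The sequences are from RefSeq on GRCh38.p14, and capitals mark motif matches on either strand.
EGR1, chr5:138465229-138465478, plus strand: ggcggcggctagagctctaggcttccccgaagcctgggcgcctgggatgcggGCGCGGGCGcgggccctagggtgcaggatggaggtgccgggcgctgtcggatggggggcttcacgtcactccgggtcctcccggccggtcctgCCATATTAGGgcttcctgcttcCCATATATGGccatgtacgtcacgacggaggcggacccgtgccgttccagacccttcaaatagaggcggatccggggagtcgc
SPRY4, chr5:142324248-142324497, minus strand: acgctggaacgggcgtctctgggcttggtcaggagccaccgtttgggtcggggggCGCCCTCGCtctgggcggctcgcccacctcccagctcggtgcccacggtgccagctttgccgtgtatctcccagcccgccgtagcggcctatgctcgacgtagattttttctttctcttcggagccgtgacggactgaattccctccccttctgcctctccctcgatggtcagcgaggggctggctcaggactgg
SPRY2 (most upstream of 3 starts), chr13:80341127-80341376, minus strand: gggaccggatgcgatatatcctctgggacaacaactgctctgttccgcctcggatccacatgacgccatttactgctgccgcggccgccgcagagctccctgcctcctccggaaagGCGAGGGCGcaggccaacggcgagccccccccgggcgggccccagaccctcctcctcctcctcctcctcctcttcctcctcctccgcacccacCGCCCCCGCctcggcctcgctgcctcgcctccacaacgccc

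The search used windows of 300 bases, from 250 before to 50 after the start, on both strands, and the motifs were the CArG box (bound by serum response factor), AP-1 (TGANTCA), the cyclic AMP response element (TGACGTCA), an ETS core with its flank (CCGGAAG) and an EGR1 site (GCGNGGGCG). The EGR1 window held 2 CArG boxes, at -105 to -96 and -83 to -74 from the start, and 1 EGR1 site at -198 to -190. SPRY4 held 1 EGR1 site at -195 to -187 on the opposite strand, and the most upstream SPRY2 promoter held 2, at -134 to -126 and at -41 to -33. Of 35116 promoter windows, 1.29% held a CArG box and 9.43% an EGR1 site; AP-1, the cyclic AMP response element and the ETS motif were found in 7.71%, 1.85% and 10.3%, and in none of the 9 windows of the 7 members with an entry. No match for DUSP6, FOS, JUN, SPRED1 or the other SPRY2 promoters says only that these letters are not in the window. DUSP4, DUSP5 and ETV5 had no entry.

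**Figure D3:**
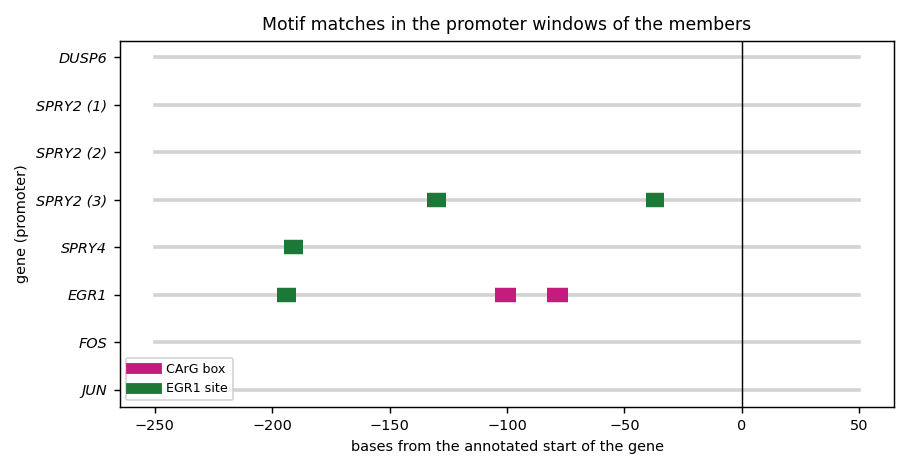
Positions of motif matches (coloured blocks) in the 300-base promoter windows of the members with an entry and a measured feature, in bases from the annotated start of the gene (horizontal axis; the vertical line is the start). CArG boxes lie only in the EGR1 window, and EGR1 sites in the windows of EGR1, SPRY4 and 1 of 3 SPRY2 promoters.

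EGR1 arrays read 9.18, 9.19, 9.46 and 9.11 in naive S and 8.19, 8.68, 8.86 and 8.63 in naive K. In low-imatinib line 1 they read 8.07, 8.07, 7.95 and 7.76, and in line 2 they read 10.22, 10.33, 10.23 and 10.28. One low-imatinib line was thus the lowest of all sets, and the other lay above every naive array. High-imatinib line 1 was the highest set at 10.95 ± 0.03 (SD, n = 4 arrays) and line 2 stood at 9.30 ± 0.10, level with naive S. Nilotinib line 1 stood at 8.62 ± 0.20, level with naive K, and nilotinib line 2 at 10.34 ± 0.06.

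The 8 sets therefore formed a high group of 3 lines, one from each resistance, and a lower group that held the naive sets and the other line of each resistance. The step between these groups, from low-imatinib line 2 to high-imatinib line 2, was 0.96 (limma on the 32 arrays, adjusted p = 7.46e-08). Neighbours that did not differ beyond technical spread were nilotinib line 2 and low-imatinib line 2 (adjusted p = 0.7), high-imatinib line 2 and naive S (0.673), and nilotinib line 1 and naive K (0.832). Steps inside the groups also passed: 0.60 from high-imatinib line 1 to nilotinib line 2, 0.61 from naive S to nilotinib line 1, and 0.63 from naive K to low-imatinib line 1. The lower group thus ran from 7.96 to 9.30. The second EGR1 feature gave the same high group on a smaller scale, with means of 7.74, 7.41 and 7.36 in the high lines and from 6.18 to 6.63 elsewhere, and correlated with the first at r = 0.95 over the 8 sets. Its order within the lower group differed, with naive K highest there. Over all lines EGR1 differed from naive by 0.66 ± 0.74 (SE, limma adjusted p = 0.553, 95% interval -1.10 to 2.42), since the lines of each resistance split.

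**Figure D4:**
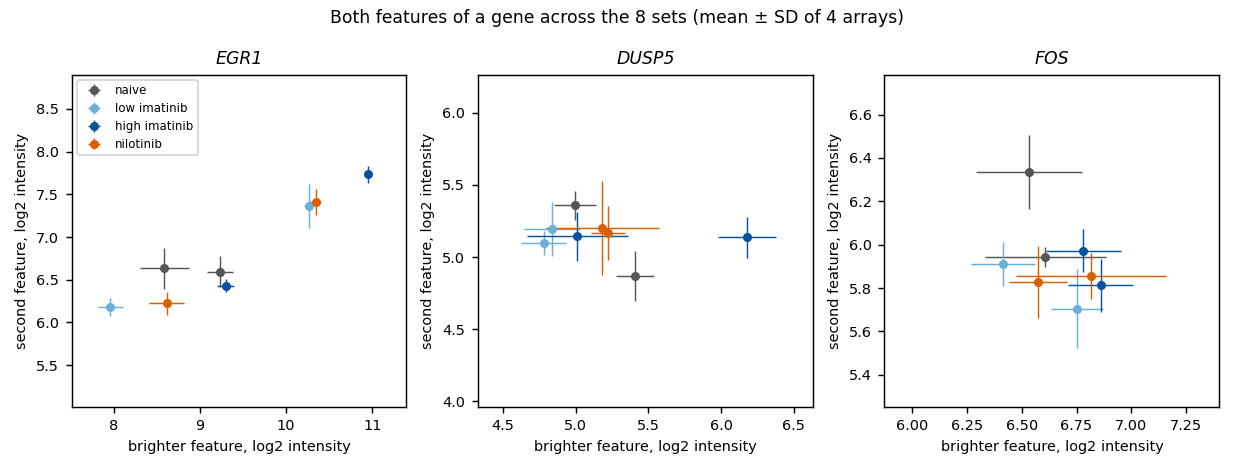
Second feature against brighter feature of EGR1, DUSP5 and FOS in log2 intensity, with 1 point per set (mean and SD of 4 arrays) and both axes of a panel of equal length. The EGR1 features ranked the 3 high sets alike (r = 0.95 over 8 sets), whereas those of DUSP5 (r = -0.25) and FOS (r = -0.43) did not move together.

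ETV5 encodes an ETS-family transcription factor that is transcribed in response to ERK activity. Its arrays read 6.04, 6.26, 5.94 and 5.95 in naive S and 6.27, 6.32, 5.82 and 5.89 in naive K. All 6 resistant lines had higher means, from 6.19 ± 0.18 in low-imatinib line 1 to 6.80 ± 0.12 in high-imatinib line 2 (SD, n = 4 arrays). Every array of low-imatinib line 2, of both high-imatinib lines and of nilotinib line 1 exceeded every naive array, whereas low-imatinib line 1 and nilotinib line 2 overlapped the naive arrays. The difference was 0.43 ± 0.16 (SE, limma adjusted p = 0.135, 95% interval 0.05 to 0.82), and 17% of all genes had every line above both naive sets. The 3 resistances gave 0.28 ± 0.20 for low imatinib, 0.59 ± 0.20 for high imatinib and 0.43 ± 0.20 for nilotinib, all against the same naive sets.

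The technical axis moved with the naive and resistant groups. ETV5 and DUSP4 have almost no loading on it, so taking it out left their differences at 0.43 and -0.45 by construction (adjusted p = 0.308 and 0.293), while the count of all genes that passed went from 553 to 12. In a fit to all 32 arrays with the set as a random block, DUSP4 (adjusted p = 0.0179) and ETV5 (0.0248) passed; 3660 genes passed there, against 553 on set means.

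JUN encodes a subunit of the AP-1 transcription factor and is also a target of stress-activated kinases. It was the member that differed most between the naive sets: its arrays read 6.97, 6.77, 7.09 and 6.82 in naive S and 8.56, 8.71, 9.08 and 8.75 in naive K. The resistant lines lay within or near that gap, from 7.28 ± 0.15 in nilotinib line 1 to 8.84 ± 0.10 in high-imatinib line 1 (SD, n = 4 arrays), with 7.59 and 8.55 in low-imatinib lines 1 and 2, 7.97 in high-imatinib line 2 and 7.78 in nilotinib line 2. Naive cells were thus at the lowest and at the second place of the order, and the difference of resistant from naive cells was 0.16 ± 0.52 (SE, limma adjusted p = 0.844). Its sign depended on the naive set: without naive S it was -0.77 (adjusted p = 0.395).

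FOS encodes the partner of JUN in AP-1. Its set means ran only from 6.42 in low-imatinib line 1 to 6.86 in high-imatinib line 1, no neighbours in the order differed beyond technical spread, and 2 of the 28 pairs of sets did. The second FOS feature ran from 5.70 to 6.33 and was highest in naive K. Against naive, the features gave opposite signs, 0.13 ± 0.13 and -0.29 ± 0.14 (SE, limma adjusted p = 0.509 and 0.23).

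Within each resistance the lines are single biological replicates, so the following tests set their difference against the spread of technical arrays only. Between high-imatinib lines 1 and 2, 5 of the 9 members differed, all higher in line 1, where 33% of all genes differed. At 2-fold or more the count was 4, against 5.6% of all genes. SPRY4 was higher by 2.54 ± 0.10 (SE, 5.80-fold, limma adjusted p = 2.72e-20), EGR1 by 1.65 ± 0.11 (3.13-fold), SPRY2 by 1.35 ± 0.10 (2.54-fold), DUSP5 by 1.17 ± 0.15 (2.25-fold) and JUN by 0.87 ± 0.12 (1.82-fold).

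Between low-imatinib lines 1 and 2, 3 members differed, against 18.7% of all genes. EGR1 was lower in line 1 by 4.93-fold (-2.30 ± 0.11, limma adjusted p = 1.07e-16) and JUN by 1.95-fold, while SPRY2 was 1.30-fold higher. EGR1 alone was past 2-fold, as were 1.06% of all genes. SPRY4 and DUSP5, which set the high-imatinib lines apart, did not pass here, with differences of -0.03 (95% interval -0.23 to 0.18) and -0.06 (-0.37 to 0.26).

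Between nilotinib lines 1 and 2, 4 members differed, against 27.6% of all genes. EGR1 (-1.73 ± 0.11, 3.31-fold), SPRY4 (-0.88 ± 0.10, 1.84-fold) and JUN (-0.50 ± 0.12, 1.42-fold) were lower in line 1, and ETV5 was higher by 0.43 ± 0.12. EGR1 was past 2-fold, where 3.8% of all genes were.

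Between naive S and naive K, JUN (-1.86 ± 0.12, 3.63-fold, limma adjusted p = 3.02e-12) and DUSP4 (-0.49 ± 0.12) were lower in S and EGR1 was higher by 0.64 ± 0.11. These 3 of 9 members compare with 12.4% of all genes, and JUN was 1 of 41 genes (0.275%) past 2-fold. The EGR1 difference was seen on the brighter feature only, as its second feature read 6.59 in naive S and 6.63 in naive K. For EGR1 the gap between the naive sets was smaller than that between the lines of any resistance, and for JUN it was larger. With the technical axis taken out, the SPRY4, EGR1, SPRY2 and DUSP5 differences between the high-imatinib lines were 2.54, 1.69, 1.39 and 1.18. High-imatinib lines 1 and 2 scored close together on that axis, at -2.13 and 2.73. Taking it out could therefore move these differences only slightly, by construction.

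Set against each of the other 7 sets in turn, high-imatinib line 1 was higher in all 7 for 4 of the 9 members, namely DUSP5, SPRY2, SPRY4 and EGR1. Of all genes, 2.84% were higher in all 7 and 1.85% lower. The smallest of the 7 differences was 0.77 for DUSP5, 0.71 for SPRY2, 1.05 for SPRY4 and 0.60 for EGR1. It was the highest set for 6 of the 9 members, FOS and JUN included, and for 10.2% of all genes. The DUSP5 part of this count rests on 1 of its 2 features. High-imatinib line 1 was the only set read in this way, and it already stood highest for most members. The counts, here and for the lists below, therefore describe that set and are not a test.

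Other genes of the pathway, from lists fixed by name, were read in the same way. Of 13 measured feedback genes outside the members, 8 differed between the high-imatinib lines, 4 in each direction, in a comparison where 33% of all genes differed and 5.6% did so by 2-fold or more. DUSP10, a phosphatase of stress-activated kinases, was 7.28-fold higher in line 1 (2.86 ± 0.14, limma adjusted p = 1.12e-17) and higher there than in all 7 other sets. PEBP1, an inhibitor of RAF, and ERRFI1, an inhibitor of the EGF receptor, were lower in line 1 by 1.29 ± 0.11 and 1.20 ± 0.11. PEBP1 was 0.43 below the naive mean in that line, against 0.36 to 0.97 above it in the other 5.

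Of 20 measured immediate early genes outside the members, 11 differed between the high-imatinib lines, against 33% of all genes, and 10 of them were higher in line 1. Those with the smallest adjusted p were IER3 (4.19-fold), MCL1, a survival gene of the BCL2 family (3.21-fold), KLF6 (2.45-fold) and IER2 (2.20-fold). IER3, ATF3, KLF6, KLF10 and MCL1, 5 of the 20, were higher in high-imatinib line 1 than in all 7 other sets, against 2.84% of all genes.

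Of 13 measured ERK output genes outside the members, 8 differed between the same lines, against 33% of all genes, and 7 of them were higher in line 1. ETV4, an ETS factor closely related to ETV5, was 3.33-fold higher, MYEOV 2.66-fold and CCND1, which encodes cyclin D1, 2.48-fold. UPP1 was 1.63-fold higher, and was the only 1 of the 13 higher in high-imatinib line 1 than in all 7 other sets, against 2.84% of all genes. Between the nilotinib lines 4 of the 13 differed, against 27.6% of all genes. LIF was 2.04-fold higher in nilotinib line 1. ETV4, MYEOV and CCND1 were higher in nilotinib line 2, by 2.41-fold, 2.22-fold and 2.22-fold. These 3 genes lay above the naive mean in high-imatinib line 1 and nilotinib line 2 and below it in the other 4 lines. ETV5 did not share this pattern: it was lower in nilotinib line 2 than in line 1.

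**Figure D5:**
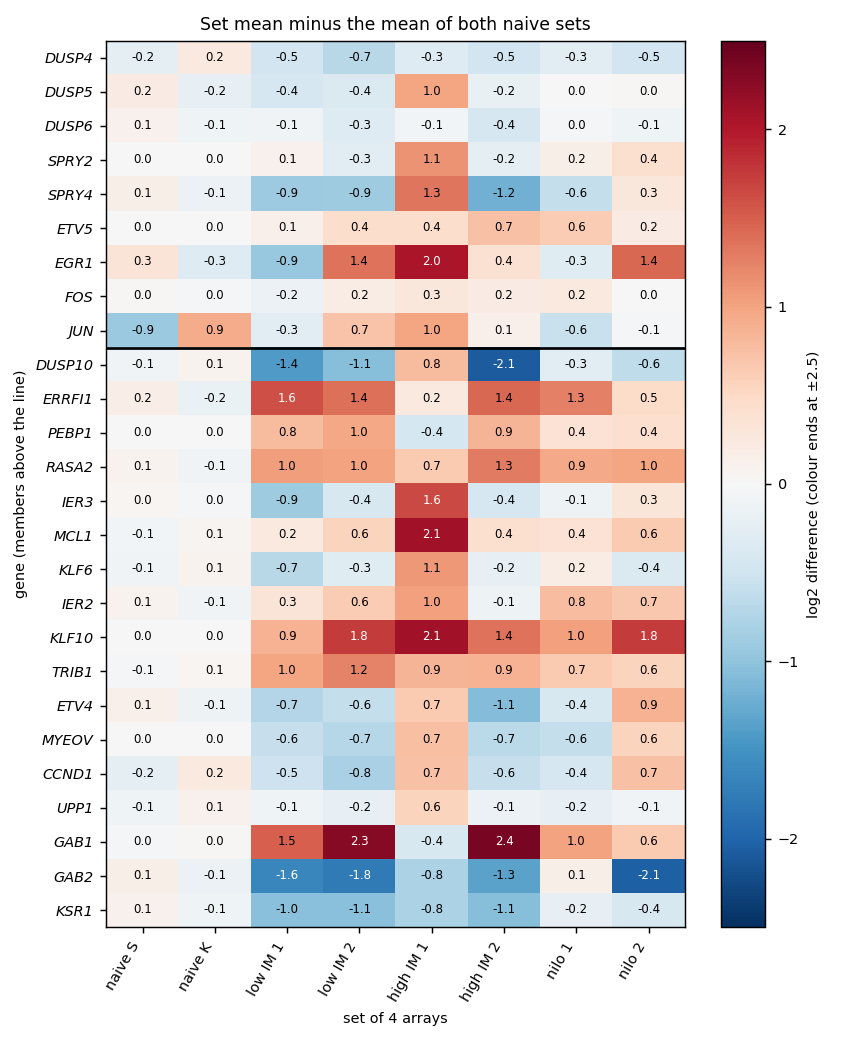
Set mean minus the mean of both naive sets, in log2 units (colour and printed value), for the members (above the line) and for other feedback, immediate early, ERK output and cascade genes named in the text, in the 8 sets (columns). In high-imatinib line 1 SPRY4, EGR1, IER3, MCL1 and ETV4 lie above the naive mean together with SPRY2 and DUSP5, and GAB1 lies below it (-0.41), unlike in the other 5 lines.

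Among 16 measured genes of the cascade between kinase and nucleus, 11 differed between the high-imatinib lines, 5 higher and 6 lower in line 1, against 33% of all genes. GAB1, an adaptor protein, was lower by 2.78 ± 0.14 (6.88-fold, limma adjusted p = 2.51e-17), and in line 1 it was lower than in all 7 other sets. In the other 5 resistant lines GAB1 lay 0.65 to 2.37 above the naive mean. Between the nilotinib lines, 7 of the 16 differed, 4 higher and 3 lower in line 1, against 27.6% of all genes. The related adaptor GAB2 was 4.58-fold higher in line 1, SOS1, a RAS activator, 2.36-fold higher, and BCR 2.26-fold higher, while CRKL was 1.71-fold lower. SOS1 was also 2.51-fold higher in low-imatinib line 1 than in line 2, where 8 of the 16 differed, 3 higher and 5 lower, against 18.7% of all genes.

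Over all 6 resistant lines against naive, few of these genes passed, as did 3.72% of all genes. RASA2, a RAS GTPase-activating protein, rose by 0.99 ± 0.17 (SE, limma adjusted p = 0.0387), 1 of the 13 feedback genes. TRIB1, a pseudokinase, rose by 0.86 ± 0.11 (0.0314), 1 of the 20 immediate early genes, and KSR1, a scaffold for RAF and MEK, fell by 0.76 ± 0.13 (0.037), 1 of the 16 cascade genes. None of the 13 other ERK output genes passed with limma, and 2 had an unadjusted p under 0.05, a smaller share than the 29.8% of all genes. In the same comparison KLF10 stood at 1.47 ± 0.31 (adjusted p = 0.0517), ERRFI1 at 1.07 ± 0.34 (0.102), GAB1 at 1.23 ± 0.64 (0.235), GAB2 at -1.24 ± 0.51 (0.16), ETV1 at -0.57 ± 0.15 (0.07) and VGF at 0.39 ± 0.11 (0.085). BCR, the gene of the fusion kinase, stood at 0.29 ± 0.29 (0.506).

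The medians over these lists were 0.06 for feedback genes, 0.05 for immediate early genes, -0.13 for ERK output genes and 0.30 for cascade genes, against -0.03 for all genes. The stress genes HSPA1A and HSPA1B, near-identical copies whose probes may not separate them, fell by 2.19 ± 0.38 and 2.26 ± 0.36 (limma adjusted p = 0.0388 and 0.0353), 2 of 5 heat shock genes measured. Their levels moved with the naive and resistant groups, and their part in the differences of the members was not tested.

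Between resistances the members gave values only. High-imatinib lines both lay above both low-imatinib lines for DUSP4, DUSP5, ETV5 and FOS, 4 of 9, where 17.2% of all genes had this order, and none lay below (16% of genes). For DUSP4, ETV5 and FOS the closest lines were only 0.0025, 0.0056 and 0.029 apart, not beyond technical spread. The second FOS feature overlapped between these groups. The largest was DUSP5 (0.79 ± 0.35, limma adjusted p = 0.934), and its second feature gave -0.01. Without high-imatinib line 2 the brighter feature gave 1.37 (adjusted p = 0.0346), but that arm is then high-imatinib line 1 alone, which is assumed to vary like the other groups. Nilotinib lines both lay above both low-imatinib lines for DUSP5, SPRY2 and SPRY4, 3 of 9, against 16.7% of all genes, and none lay below (23.9%). The SPRY2 order rested on a gap of 0.036 between nilotinib line 1 and low-imatinib line 1, not beyond technical spread. The second DUSP5 feature overlapped between nilotinib and low imatinib. JUN, 1 of 9, was lower in both nilotinib lines than in both high-imatinib lines (-0.87 ± 0.63, adjusted p = 0.755), against 23.5% of all genes, and no member was higher in both (13.7%). The JUN order rested on a gap of 0.19 between high-imatinib line 2 and nilotinib line 2, not beyond technical spread. These comparisons share groups and so are not independent of each other.

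The correlations here describe the 8 set means of the brighter features, which share arrays and normalization. DUSP5, SPRY2 and SPRY4, all highest in high-imatinib line 1, had pairwise Pearson correlations from 0.87 to 0.89, and ETV5 and FOS of 0.80. The second features of DUSP5 and FOS did not follow the brighter ones (r = -0.25 and -0.43). FOS varied less between set means (SD 0.16) than between arrays within a set (SD 0.21). EGR1 correlated at 0.62 with DUSP5 and at 0.60 with SPRY4, being high also in low-imatinib line 2, where those genes were low. Among 4608 genes with an SD of at least 0.3 over the sets, the closest patterns were ZYX (r = 0.99) and C11orf24 to DUSP5, VASP (0.98) and DIP2B to SPRY2, TMEM154 (0.99) and CD69 (0.97) to SPRY4, and TMEM41B (0.97) and WEE1 (0.95) to EGR1. CD69, an activation antigen of blood cells, ranged from 4.22 in high-imatinib line 2 to 9.58 in high-imatinib line 1, the same sets at which SPRY4 was lowest and highest. The closest for the others were BBS4 and UNC119B to ETV5, SCARNA11 and SCARNA4 to DUSP4, MIR550A1 and SPDYE2 to DUSP6, SANBR and LINC00173 to FOS, and FNDC4 and SH3BP5 to JUN (0.81 each).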

How the data were processed

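The deposited values are summarised intensities on a log2 scale, 1 value per array feature; the base was inferred from their range. Transcriptome Analysis Console 4.0 is listed in the submitters' processing notes; how arrays were normalized is not stated there. Values were used as deposited by the authors. Gene symbols came from the platform annotation: 16098 of 53617 features carried 1 symbol, and the feature with the highest mean represented each of 14884 genes. The 4 arrays of a set were averaged and limma 3.58.1 (R 4.3.3) modelled these 8 means by group, leaving 4 residual degrees of freedom. Sets were compared with each other by limma on the 32 arrays, with 24 residual degrees of freedom, against technical spread only. P-values were adjusted by Benjamini-Hochberg over all genes, at 0.05. The number of sets per group limits the precision of group comparisons, and the number of arrays that of comparisons between sets. The fits were tested on simulated data.

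All members were named, and other listed genes by a rule: up to 4 passing genes per list and comparison by smallest adjusted p, and the 2 largest differences over all resistant lines against naive. Not every gene under this rule is printed. ATF3 and KLF10 in the comparison with all 7 other sets were named after their values were seen. Members, lists and tests were chosen with earlier results of these data known. Line numbers were shared between resistances but did not pair the lines. Alternatives covered scaling, dim genes, the feature used, the groups fitted, the technical axis, a random block, sets or arrays left out and the line number as a block.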

Additional observations from a re-analysis of the deposited data

Results flagged for a closer look

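Among 96 checks (12 features in 8 sets), 10 arrays stood apart from the other 3 of their set, where chance gives about 1 in 20. They were DUSP5 in low-imatinib line 1 (4.55, others 4.85 to 4.87), DUSP6 in high-imatinib line 2 (4.59, others 4.95 to 4.97), SPRY2 in naive K (6.43, others 6.81 to 6.88) and SPRY2 in low-imatinib line 2 (6.77, others 6.36 to 6.42). SPRY4 in low-imatinib line 2 (6.48, others 6.34 to 6.36), ETV5 in high-imatinib line 1 (6.65, others 6.46 to 6.47), EGR1 in high-imatinib line 1 (10.90, others 10.96 to 10.97) and JUN in nilotinib line 2 (8.15, others 7.65 to 7.68) were further cases. The second feature of EGR1 in nilotinib line 1 (6.42, others 6.13 to 6.17) and that of FOS in nilotinib line 2 (5.58, others 5.88 to 5.94) completed them.

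For EGR1 in low imatinib, every array of line 1 lay below every naive array and every array of line 2 above every naive array. The lines stood at -0.95 and 1.35 from the naive mean, and its second feature gave -0.43 and 0.75. SPRY4 in high imatinib was split in the same way, at 1.34 in line 1 and -1.20 in line 2. The difference between lines was tested only against technical spread, not over biological replicates.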

How the results depend on the processing

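Alternatives for group comparisons were followed for all resistant lines against naive, and elsewhere only for members whose sets did not overlap. Of these 437 values, 416 kept direction and side of the threshold, 6 gained it and 15 changed sign, the last for members with differences near 0 or wide errors. Within a group only differences that had passed were followed, so none could gain the threshold. Of these 105 values, 101 still passed and 4 did not: SPRY2 between the low-imatinib lines without array 1 (0.31) or array 3 (0.36), ETV5 between the nilotinib lines without array 2 (0.30) and DUSP4 between the naive sets without array 2 (-0.37).

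Over all resistant lines, JUN turned to -0.0075 under quantile normalization, FOS to -0.081 with the mean over features, and with the technical axis taken out DUSP5 read -0.055, SPRY2 -0.033, FOS -0.0015 and JUN -0.23. SPRY2 for nilotinib against naive read -0.044 with the axis taken out. Leaving out each set in turn gave -0.21 to 0.21 for DUSP5, -0.0069 (without high-imatinib line 1) to 0.44 for SPRY2, -0.75 to 0.095 (without high-imatinib lines 1 and 2 respectively) for SPRY4, and -0.77 to 1.09 (without naive S and K respectively) for JUN; the cause was not tested.

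Gains of the threshold were SPRY4 for low imatinib with only the groups compared (-0.90), DUSP5 for high against low imatinib without high-imatinib line 2 (an arm of 1 set, assumed to vary like the other groups), and 4 with the set as a random block: DUSP4 and ETV5 over all lines, DUSP4 for low imatinib (adjusted p = 0.0156) and ETV5 for high imatinib (0.0235).

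Counts of all genes past the threshold moved more. All resistant lines against naive gave 553, but 323 under quantile normalization, 16 over every feature, 12 without the technical axis, 3660 with the random block and 0 to 1742 with a set left out (1742 without high-imatinib line 1). Nilotinib against naive gave 66, but 0 under quantile normalization, over every feature, without the axis and with only the groups compared, 3696 with the random block and 0 to 1187 with a set left out. Low imatinib against naive gave 0, but 4 without dim genes, 1990 with only the groups compared, 2672 with the random block and 0 to 705 with a set left out. High imatinib against naive gave 0, but 1, 1679 and 0 to 125 under the last 3 of these. High against low imatinib gave 0, but 413 with the random block and 0 to 270. Nilotinib gave 0 against low and against high imatinib, but 2 and 1 over every feature, 550 and 201 with the random block, and 0 to 28 and 0 to 35 with a set left out. Naive S against K gave 1840, but 2871 without the axis, a choice added after the data were seen, and 582 to 1597 with an array left out.

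Line numbers did not pair the lines (r of line differences 0.14 for low and high, 0.19 for low and nilotinib, -0.20 for high and nilotinib). With the line number as a replicate block, 0 genes passed between resistances, as without it; DUSP5 was 0.79 for high against low imatinib (adjusted p = 0.932). A crossed pairing of high-imatinib and nilotinib lines, also added later, gave 0 calls. With 2 lines a group, biological spread is poorly known, and dim features such as DUSP4, DUSP5 and DUSP6 limit what a small difference can show.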
